A study of Mus musculus with 9 samples.

Results

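The enzymes that build cholesterol and fatty acids, together with the proteins that control them, were followed as 29 genes in RNA-Seq libraries of NMuMG cells, an established mouse mammary gland epithelial line. The genes were chosen by symbol, and all 29 were found among the 52459 gene symbols in the files. Each symbol's level was the sum of the estimated read counts of its transcripts, and all 29 had at least 1 count per 1000000 (CPM) in at least 3 libraries, the limit used for testing, which 15370 genes passed. Every library came from NMuMG cells grown in DMEM with 10% FCS and 0.01 mg/ml of a supplement that the labels do not name, stably transfected with a vector of the pBICEP family and selected with G418 as transfectant pools. The study's methods list bovine insulin in the medium of these cells, and insulin is a known inducer of lipid synthesis genes. Mock cells carry the empty vector, EPR cells overexpress the long noncoding RNA EPR (BC030870 in the files), and EPRSTOPE cells overexpress EPR with a stop codon placed at the start of its short reading frame. Each condition had 3 libraries, so 9 in all, named by the numbers 203 to 211 of their titles. Whether the libraries of one condition came from separate transfections cannot be told from the labels, so the p-values measure the spread among these libraries. In a bulk sample, fewer cells that express a gene cannot be told apart from less RNA per cell.

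Cells make cholesterol from acetyl-CoA through mevalonate and then squalene, and they make fatty acids from the same precursor through malonyl-CoA. Both routes are switched on by the SREBP transcription factors, which are held in the endoplasmic reticulum by SCAP and INSIG when sterol is plentiful and are cut and sent to the nucleus when it is scarce. SREBP-2 acts mainly on cholesterol genes and SREBP-1 mainly on fatty acid genes, and in the mammary gland the fatty acid route supplies milk fat during lactation.

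Library depth ran from 5972457 to 11876435 estimated counts, at which 3 counts equal 0.253 to 0.502 CPM. The RNA of EPR itself stood at 0 to 0.163 CPM in the mock libraries, 23.7 to 27.0 CPM in the EPR libraries and 3.80 to 4.74 CPM in the EPRSTOPE libraries, so the direct comparison of the overexpressing cells sets a high level of the intact RNA against a lower level of the mutated one. Epithelial markers were mixed in the mock libraries. Cdh1 stood at 0.84 ± 0.46 CPM (SD, n = 3) against 556 ± 14 in EPR and 403 ± 23 in EPRSTOPE cells. Epcam was at 0 in mock, with means of 3.63 CPM in EPR and 0.11 in EPRSTOPE. Cldn3, Cldn4, Cldn7 and Esrp1 were at 0 in mock and in EPRSTOPE libraries. Their means in EPR were only 0.06 to 0.23 CPM, below the limit for testing. The keratins Krt8, Krt18 and Krt19 were at 2108, 1526 and 280 CPM in mock. The summed epithelial markers were 3692 to 4157 CPM in mock, 9492 to 10601 in EPR and 10686 to 11023 in EPRSTOPE libraries, and the summed mesenchymal markers 4290 to 4437, 2249 to 2476 and 4020 to 4360. Of the 7 mesenchymal markers tested, 6 fell in EPR and 3 in EPRSTOPE (85.7% and 42.9%, against 12.9% and 12.4% of all genes tested). In EPRSTOPE these were Cdh2 (-1.06), Twist2 (-1.12) and Tnc (-2.09), while the abundant Vim had 0.25. All 15 proliferation genes listed fell in EPR cells and 7 of 15 in EPRSTOPE cells against mock. Over all genes tested, 12.9% and 12.4% fell. The sums of the 15 genes were 4196 to 4297 CPM in mock, 2049 to 2116 in EPR and 2035 to 2160 in EPRSTOPE libraries. In EPRSTOPE their log2 fold changes ran from -2.44 for Mki67 to 0.005 for Pcna and 0.008 for Mcm4. Adipocyte markers summed to at most 1.86 CPM in any library, hepatocyte markers to at most 2.0 CPM and leukocyte markers to at most 4.55 CPM. Sequenced fragments, read from the difference between transcript length and effective length, were 411 to 473 bases in mock, 180 to 282 in EPR and 115 to 386 in EPRSTOPE libraries, and mitochondrial transcripts took 1.18% to 1.39%, 1.90% to 2.58% and 1.62% to 1.68% of counts. The part of these differences in the values of the 29 genes was not tested.

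Promoters from RefSeq on GRCm38.p6, taken from 250 bases before to 50 bases after a transcript start, were at hand for 22 of the 29 genes, in 28 windows. The sterol regulatory element that SREBPs bind was searched as TCACNCCAC on both strands, and 1 of the 28 windows held it (3.57%), that of Hmgcs1, with its first letter 137 bases before the start, against 1.24% of 32851 mouse promoters. SREBPs are known to act together with the factors NF-Y, which binds CCAAT, and Sp1, which binds the GC box GGGCGG, both searched on either strand. The CCAAT box stood in 19 of the 28 windows (67.9%), against 37.4% of all promoters, and the GC box in 21 (75%), against 35.7%, in each case in windows of 18 of the 22 genes. The E-box CACGTG was in 6 windows (21.4%) of 5 genes, against 7.15%. Some genes have several windows, which can overlap. A longer spelling of the element was not searched, and a match describes the letters and not a bound site. The promoter of Hmgcs1 (chr13:119690101-119690400, plus strand) is printed because it holds the exact element, that of Insig1 (chr5:28071162-28071461, plus strand) because the gene rose in both overexpressing conditions, and that of Cyp51 (chr5:4104648-4104947, minus strand) because the gene separated those conditions. Each runs 5′ to 3′ on the gene's strand, and capitals mark the sterol regulatory element and CCAAT or its reverse complement ATTGG.
Hmgcs1: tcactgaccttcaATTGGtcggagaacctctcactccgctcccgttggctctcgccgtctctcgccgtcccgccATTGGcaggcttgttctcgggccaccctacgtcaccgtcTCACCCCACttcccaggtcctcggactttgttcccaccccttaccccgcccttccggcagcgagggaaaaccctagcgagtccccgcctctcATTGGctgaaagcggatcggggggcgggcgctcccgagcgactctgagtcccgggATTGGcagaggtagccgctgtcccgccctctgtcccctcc
Insig1: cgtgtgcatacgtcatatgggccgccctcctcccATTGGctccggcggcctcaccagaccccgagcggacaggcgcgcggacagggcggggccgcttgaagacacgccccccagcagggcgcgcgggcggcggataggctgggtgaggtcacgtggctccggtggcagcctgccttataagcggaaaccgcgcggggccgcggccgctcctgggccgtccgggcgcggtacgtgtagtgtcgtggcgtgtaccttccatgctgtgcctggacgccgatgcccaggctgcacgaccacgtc
Cyp51: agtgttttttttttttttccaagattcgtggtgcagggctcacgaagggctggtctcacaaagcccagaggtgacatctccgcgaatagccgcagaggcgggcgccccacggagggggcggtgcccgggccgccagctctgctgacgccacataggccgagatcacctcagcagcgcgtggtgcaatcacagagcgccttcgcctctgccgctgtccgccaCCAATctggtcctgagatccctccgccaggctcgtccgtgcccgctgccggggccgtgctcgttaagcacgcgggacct

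Against mock, the route from squalene to cholesterol rose in part in both EPR and EPRSTOPE cells, while the desaturases Scd1 and Fads1 and Acaca, the first committed enzyme of fatty acid synthesis, fell. The cut-offs for a change were an adjusted p under 0.01, from edgeR's quasi-likelihood test and adjusted by Benjamini-Hochberg over the 15370 genes, together with a log2 fold change beyond 0.5 in size. In EPR cells 8 of the 29 genes rose and 5 fell, which is 27.6% and 17.2% of them, where 15.2% of all genes tested rose and 12.9% fell. In EPRSTOPE cells 8 rose and 5 fell, where 15.6% and 12.4% of all genes tested did. The median log2 fold change of the 29 genes was 0.15 in EPR and 0.09 in EPRSTOPE cells, beside -0.01 and -0.04 over all genes tested. Both comparisons use the same 3 mock libraries, so they are given side by side. Srebf2, Insig1, Fdft1, Sqle, Hsd17b7 and Ebp passed as higher in both, Dhcr7, Acaca, Scd1 and Fads1 as lower in both, and 13 genes passed in neither. With counts scaled for transcript length, only Fdft1 and Sqle of the squalene genes that rose in EPR kept their call. They lie on chromosomes 14 and 15, whose other tested genes had the highest medians in EPR, 0.50 and 0.49. In EPRSTOPE, Hsd17b7 and Sc5d on other chromosomes kept their call as well.

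**Figure D1:**
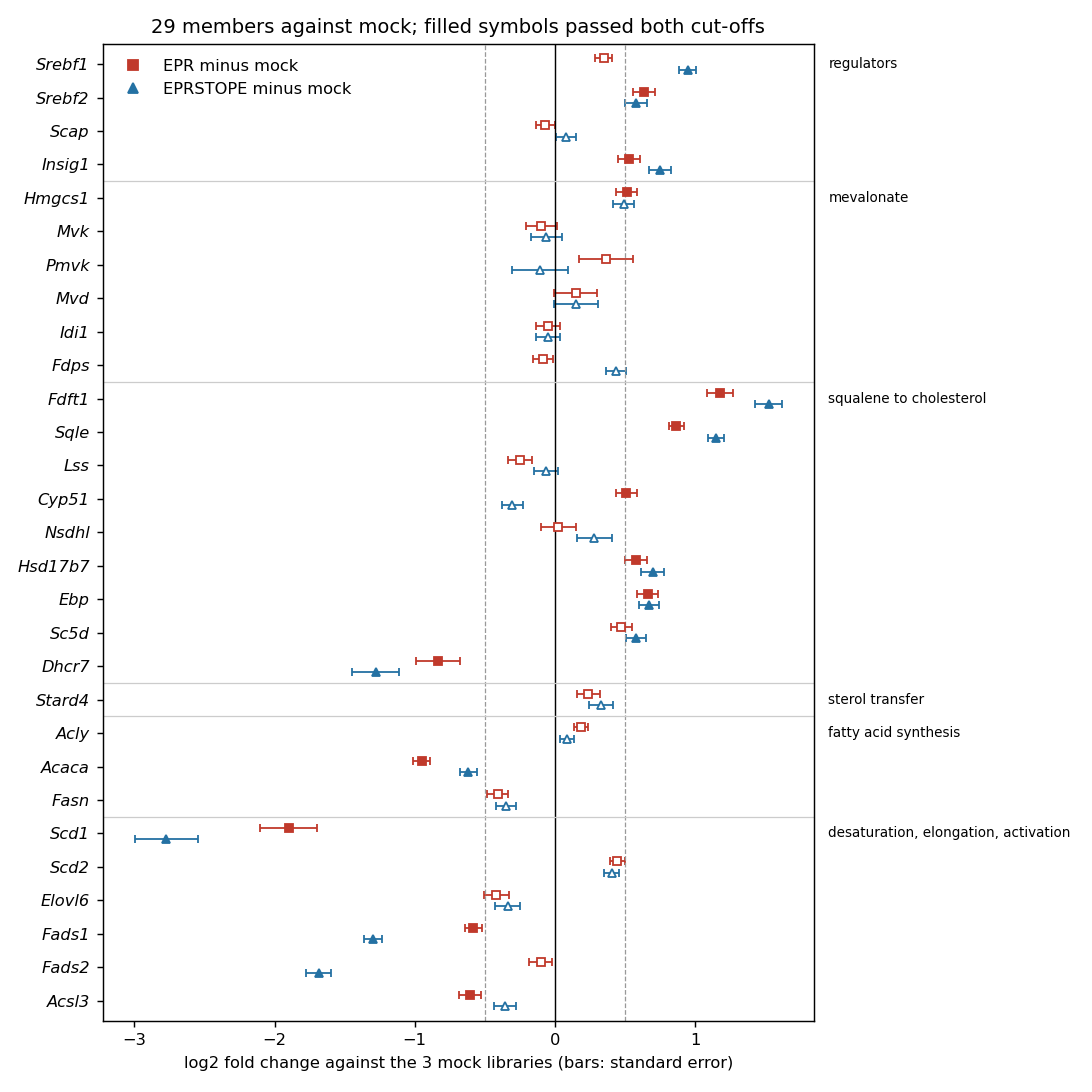
Log2 fold change (x axis) of the 29 genes, in rows grouped by role, for EPR minus mock (squares) and EPRSTOPE minus mock (triangles), fitted on 3 libraries per condition, with standard errors as bars. Filled symbols passed both cut-offs, of which the fold cut-off is drawn as dashed lines at -0.5 and 0.5: 5 of the 8 filled symbols to the right in each comparison are genes of the squalene to cholesterol route, and Scd1 lies farthest to the left at -1.90 and -2.77.

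The libraries of EPR and mock cells did not overlap for 14 genes that were higher in EPR and 9 that were lower, where 28.9% of all genes tested stood apart in each direction. For EPRSTOPE and mock they did not overlap for 13 higher and 9 lower genes, against 28.2% and 28.3%. At an adjusted p under 0.05 and any fold, 13 of the 29 genes were higher and 8 lower in EPR (24.6% and 24% of all genes tested) and 12 higher and 9 lower in EPRSTOPE (25.3% and 23.1%). Beyond a log2 fold change of 1, 1 gene was higher and 1 lower in EPR (8.81% and 6.13% of all genes tested) and 2 were higher and 4 lower in EPRSTOPE (8.46% and 6.98%), so that the share of members with a larger change was below that of all genes in each case but the decreases in EPRSTOPE. The exact two-sided permutation test of 3 libraries against 3 gave p = 0.1 for genes without overlap, the smallest it allows, and cannot pass a threshold of 0.05.

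Of the 4 regulators, 2 rose in EPR and 3 in EPRSTOPE (50% and 75%, against 15.2% and 15.6% of all genes tested). The SREBP-2 gene and the sterol sensor Insig1 rose in both. Srebf2 (ENSMUSG00000022463.7, chromosome 15 of GRCm38 from 82147181 to 82205379) stood at 98.5, 106 and 114 CPM in the mock libraries, at 175, 162 and 156 in EPR and at 143, 169 and 162 in EPRSTOPE. Every library of both overexpressing conditions lay above every mock library, and the overexpressing conditions overlapped each other. The log2 fold change was 0.63 in EPR (standard error 0.08, adjusted p = 3.3e-05) and 0.58 in EPRSTOPE (standard error 0.08, adjusted p = 6.9e-05). Insig1 (ENSMUSG00000045294.11, chromosome 5, 28071363 to 28078662), whose product retains the SREBPs and is itself a known SREBP target, read 34.0, 36.8 and 39.2 CPM in mock, 54.4, 48.5 and 56.4 in EPR and 61.2, 62.8 and 61.6 in EPRSTOPE libraries. No libraries of different conditions overlapped, and Insig1 rose by 0.53 on the log2 scale in EPR (standard error 0.08, adjusted p = 0.00014) and by 0.75 in EPRSTOPE (standard error 0.08, adjusted p = 8.4e-06). Leaving out mock library 203 or EPR library 208 brought the EPR value of Insig1 under the fold cut-off, the lowest being 0.48.

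Srebf1, which encodes SREBP-1, rose in EPRSTOPE cells. Srebf1 (ENSMUSG00000020538.15, chromosome 11, 60199089 to 60222581) stood at 70.7, 63.5 and 68.7 CPM in mock, 84.8, 88.0 and 85.1 in EPR and 124, 136 and 129.8 in EPRSTOPE libraries, in 3 levels without overlap. The log2 fold change was 0.95 in EPRSTOPE (standard error 0.06, adjusted p = 1.2e-07), and in EPR it was 0.35 (standard error 0.06, adjusted p = 0.00057), under the fold cut-off. These values depend on how transcripts are weighed. Per unit of length the gene overlapped between conditions, at 61.0 to 106 transcripts per 1000000 (TPM) in mock, 55.8 to 59.1 in EPR and 55.4 to 139 in EPRSTOPE libraries, and with counts scaled for transcript length the EPR value turned to -0.36 and the EPRSTOPE value fell under the cut-offs at 0.40 (adjusted p = 0.31). The gene has 12 listed transcripts. Its longest protein-coding one, Srebf1-201, was estimated at 3.62, 5.60 and 3.89 TPM in mock, 8.87, 10.1 and 8.11 in EPR and 17.9, 14.96 and 8.45 in EPRSTOPE libraries, higher in each overexpressing library than in each mock library, while its 9 short listed transcripts without a coding sequence took 39.6% to 61.1% of the gene's counts in mock, 27.6% to 33.6% in EPR and 18.2% to 49.9% in EPRSTOPE libraries. Transcripts of one gene share reads, so these estimates are less certain than the gene's sum.

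Scap (ENSMUSG00000032485.14, chromosome 9, 110333288 to 110384950), the escort that carries SREBPs to the place where they are cut, read 76.6, 67.6 and 66.1 CPM in mock, 68.1, 66.3 and 65.5 in EPR and 76.9, 71.0 and 73.9 in EPRSTOPE libraries. Its libraries overlapped between mock and each overexpressing condition, at log2 fold changes of -0.07 (adjusted p = 0.44) and 0.08 (adjusted p = 0.37).

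**Figure D2:**
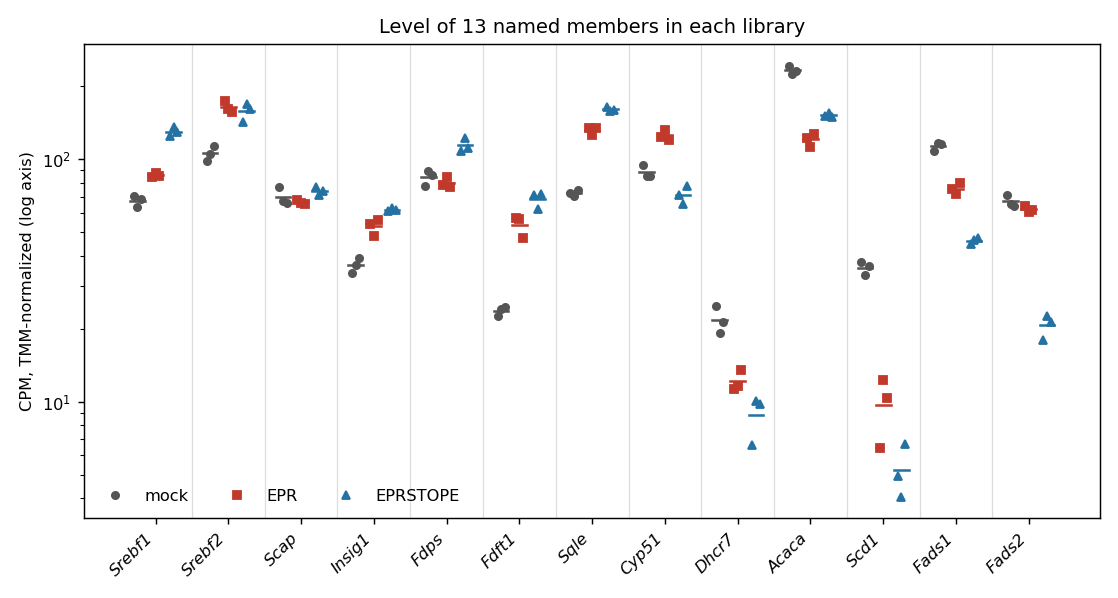
CPM after TMM normalization (y axis, log scale) of 13 of the 29 genes in each of the 9 libraries, as circles for mock, squares for EPR and triangles for EPRSTOPE, with a bar at each mean of 3 libraries. Fdft1 and Sqle stand higher in both overexpressing conditions than in mock, Scd1 and Dhcr7 lower, and Fads2 drops from 64.5 to 71.3 CPM in mock to 18.0 to 22.6 in EPRSTOPE.

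Of the 6 enzymes from acetyl-CoA to farnesyl diphosphate, 1 rose in EPR (16.7%, against 15.2% of all genes tested). None passed in EPRSTOPE, where 15.6% of all genes tested rose and 12.4% fell. Hmgcs1, the HMG-CoA synthase that starts the route and whose promoter holds the exact sterol regulatory element, read 114, 99.1 and 112 CPM in mock, 146, 161 and 156 in EPR and 149.8, 162 and 144 in EPRSTOPE libraries. The libraries of both overexpressing conditions lay above those of mock, and Hmgcs1 rose in EPR (log2 fold change 0.51, standard error 0.07, adjusted p = 9.4e-05), where leaving out mock library 204 or EPR library 207 took it under the fold cut-off, the lowest value being 0.44. In EPRSTOPE the value was 0.49 (standard error 0.07, adjusted p = 0.00014), just under that cut-off. The kinases Mvk and Pmvk, the decarboxylase Mvd and the isomerase Idi1 had log2 fold changes from -0.11 to 0.36, with adjusted p from 0.15 to 0.69, and passed in neither comparison.

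Fdps (ENSMUSG00000059743.12, chromosome 3, 89093588 to 89101959), which makes farnesyl diphosphate, the branch point to sterols and to protein prenylation, stood at 77.8, 89.6 and 86.2 CPM in mock, 78.2, 84.5 and 77.0 in EPR and 109, 123 and 111 in EPRSTOPE libraries. Mock and EPR libraries overlapped, and the EPRSTOPE libraries lay above both. The log2 fold change was -0.08 in EPR (adjusted p = 0.38) and 0.43 in EPRSTOPE (standard error 0.07, adjusted p = 0.00038), under the fold cut-off.

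From squalene onward, 5 of 9 genes rose and 1 fell in each comparison with mock, or 55.6% and 11.1%. The shares of all genes tested were 15.2% and 12.9% in EPR and 15.6% and 12.4% in EPRSTOPE. The summed level of these 9 genes was 391 to 402 CPM in mock, 537 to 564 in EPR and 540 to 576 in EPRSTOPE libraries, without overlap with mock. Per length the sum did overlap with mock, at 225 to 273 TPM in mock, 238 to 286 in EPR and 239 to 325 in EPRSTOPE libraries. Fdft1 (ENSMUSG00000021273.10, chromosome 14, 63145150 to 63179578), the squalene synthase that commits farnesyl diphosphate to sterols, had the largest increase of the 29 genes. It read 22.5, 24.1 and 24.6 CPM in mock, 57.4, 56.7 and 47.5 in EPR and 71.2, 62.6 and 71.7 in EPRSTOPE libraries. Every overexpressing library was at least at 47.5 CPM, and the fold was 2.26 in EPR (log2 fold change 1.18, standard error 0.09, adjusted p = 7.6e-07) and 2.87 in EPRSTOPE (log2 fold change 1.52, standard error 0.09, adjusted p = 7.3e-08). Sqle (ENSMUSG00000022351.14, chromosome 15, 59315077 to 59331192), the squalene epoxidase and a known rate-limiting step, read 72.5, 70.4 and 74.7 CPM in mock, 135, 127 and 135 in EPR and 164, 159 and 160.2 in EPRSTOPE libraries. The conditions did not overlap, and Sqle rose 1.82-fold in EPR (log2 fold change 0.87, standard error 0.06, adjusted p = 1.3e-07) and 2.22-fold in EPRSTOPE (log2 fold change 1.15, standard error 0.06, adjusted p = 9.3e-09).

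The later steps were divided. Hsd17b7, a keto-steroid reductase, rose by 0.58 and 0.70 on the log2 scale in EPR and EPRSTOPE, from 21.8 to 22.4 CPM in mock to 31.5 to 34.7 and 34.3 to 36.9. Ebp, the sterol isomerase, rose by 0.66 and 0.67, from 34.7 to 39.9 CPM in mock to 59.2 to 61.1 and 58.7 to 62.5. With counts scaled for transcript length, Hsd17b7 lost its call in EPR and Ebp in both conditions (adjusted p = 0.028, 0.16 and 0.19). Of the protein-coding transcripts of Ebp, Ebp-201 was estimated at 4.20 to 4.28 TPM in mock, 8.03 to 17.1 in EPR and 3.68 to 22.5 in EPRSTOPE libraries. The shorter Ebp-203 overlapped between mock and each overexpressing condition, at 20.1 to 29.5, 25.1 to 31.3 and 8.82 to 22.6 TPM. Sc5d, the lathosterol oxidase, rose in EPRSTOPE by 0.58 (adjusted p = 3.5e-05) and had 0.47 in EPR (adjusted p = 0.00017), under the fold cut-off. Lanosterol synthase, Lss, had -0.25 in EPR (adjusted p = 0.029) and -0.06 in EPRSTOPE (adjusted p = 0.57), and the dehydrogenase Nsdhl 0.02 and 0.28 (adjusted p = 0.91 and 0.085), neither past the cut-offs.

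Cyp51 (ENSMUSG00000001467.5, chromosome 5, 4081145 to 4104746), the demethylase that acts on lanosterol, stood at 94.5, 85.4 and 85.3 CPM in mock, 124, 133 and 119.7 in EPR and 71.0, 65.7 and 77.8 in EPRSTOPE libraries. The EPR libraries lay above mock and the EPRSTOPE libraries below it. Cyp51 rose in EPR by 0.51 (standard error 0.07, adjusted p = 0.00013), a value that fell under the fold cut-off without mock library 204 or 205, without EPR library 207 and with counts scaled for transcript length, where it was 0.16. Per length the conditions overlapped, at 43.5 to 67.2 TPM in mock, 40.8 to 56.1 in EPR and 25.1 to 47.5 in EPRSTOPE libraries, with a mean in EPR that was not above that of mock (50.4 ± 8.4 against 51.8 ± 13.3, SD, n = 3). In EPRSTOPE the log2 fold change was -0.30 (adjusted p = 0.0057), under the fold cut-off.

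Dhcr7 (ENSMUSG00000058454.15, chromosome 7, 143823145 to 143848410), which makes cholesterol in the last step, fell in both. It read 24.9, 19.2 and 21.2 CPM in mock, 11.3, 11.6 and 13.6 in EPR and 6.61, 10.0 and 9.78 in EPRSTOPE libraries. No mock library overlapped an overexpressing one, and the log2 fold change was -0.83 in EPR (standard error 0.16, adjusted p = 0.00093) and -1.28 in EPRSTOPE (standard error 0.17, adjusted p = 4.9e-05). With counts scaled for transcript length, neither passed (adjusted p = 0.052 and 0.024), although the level per length was also lower in each overexpressing library, at 4.12 to 13.5 TPM against 16.5 to 27.0 in mock. Stard4, a carrier of sterol between membranes, had 0.24 in EPR (adjusted p = 0.033) and 0.33 in EPRSTOPE (adjusted p = 0.0062), under the fold cut-off.

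Of the 3 enzymes of fatty acid synthesis, Acaca fell in both conditions (33.3%, against 12.9% and 12.4% of all genes tested). Acaca (ENSMUSG00000020532.18, chromosome 11, 84129672 to 84401651), the acetyl-CoA carboxylase that makes malonyl-CoA, read 244, 225 and 231 CPM in mock, 122, 113 and 127 in EPR and 151, 155 and 150.3 in EPRSTOPE libraries. The conditions did not overlap, and Acaca was 1.93-fold lower in EPR (log2 fold change -0.95, standard error 0.06, adjusted p = 1.1e-07) and 1.54-fold lower in EPRSTOPE (log2 fold change -0.62, standard error 0.06, adjusted p = 4.0e-06). Fasn, the synthase itself, was at 667 to 731 CPM in mock, 482 to 546 in EPR and 488 to 586 in EPRSTOPE libraries, also without overlap with mock, at log2 fold changes of -0.41 (adjusted p = 0.00067) and -0.35 (adjusted p = 0.0020) that did not reach the fold cut-off. Acly, which supplies cytosolic acetyl-CoA from citrate, had log2 fold changes of 0.18 and 0.09, whose sign turned with counts scaled for transcript length (-0.17 and -0.24), and its level per length ran from 100.6 to 126.5 TPM in mock libraries, from 74.0 to 102.9 in those of EPR and from 68.9 to 91.8 in those of EPRSTOPE.

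Of the 6 genes for desaturation, elongation and activation, 3 fell in each comparison with mock (50%, against 12.9% and 12.4% of all genes tested). Scd1 (ENSMUSG00000037071.2, chromosome 19, 44394455 to 44407879), a stearoyl-CoA desaturase that makes oleate, read 37.8, 33.2 and 36.2 CPM in mock, 6.46, 12.3 and 10.4 in EPR and 4.91, 4.06 and 6.67 in EPRSTOPE libraries. Mock libraries lay far above the rest, while the overexpressing conditions overlapped. Scd1 was 3.73-fold lower in EPR (log2 fold change -1.90, standard error 0.20, adjusted p = 9.8e-06) and 6.82-fold lower in EPRSTOPE (log2 fold change -2.77, standard error 0.22, adjusted p = 7.8e-07). Scd2, the desaturase of the same reaction that neighbours Scd1 on chromosome 19, had the opposite sign: 604 to 658 CPM in mock, 828 to 882 in EPR and 791 to 844 in EPRSTOPE, without overlap with mock. Its log2 fold changes of 0.44 (standard error 0.05, adjusted p = 2.1e-05) and 0.40 (standard error 0.05, adjusted p = 4.5e-05) did not reach the fold cut-off, except with counts scaled for transcript length, where they were 0.75 and 0.71. Per length, Scd2 was the more abundant of the pair, at 88.4 ± 6.9 TPM (SD, n = 3) in mock against 5.77 ± 0.22 for Scd1. Scd genes are close copies, and reads that fit several of them were divided by the authors' estimation.

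Fads1 (ENSMUSG00000010663.4, chromosome 19, 10182888 to 10196877) and Fads2 (ENSMUSG00000024665.7, chromosome 19, 10062765 to 10101746), neighbours that encode the delta-5 and delta-6 desaturases of polyunsaturated fatty acids, were lowest in EPRSTOPE cells. Fads1 stood at 108, 116.6 and 116 CPM in mock, 75.8, 72.0 and 79.6 in EPR and 44.6, 46.3 and 47.4 in EPRSTOPE libraries, in 3 levels without overlap. Fads1 fell in EPR (log2 fold change -0.58, standard error 0.06, adjusted p = 7.8e-06) and in EPRSTOPE (log2 fold change -1.30, standard error 0.06, adjusted p = 9.0e-09), although with counts scaled for transcript length the EPR value was -0.32 (adjusted p = 0.089). Fads2 read 71.3, 65.4 and 64.5 CPM in mock, 64.4, 60.7 and 62.0 in EPR and 18.0, 22.6 and 21.4 in EPRSTOPE libraries. Mock and EPR libraries met at 64.5 and 64.4 CPM and did not pass the test (log2 fold change -0.10, adjusted p = 0.34), and Fads2 was 3.22-fold lower in EPRSTOPE than in mock (log2 fold change -1.69, standard error 0.09, adjusted p = 1.7e-08).

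Acsl3, a long-chain acyl-CoA synthetase found on lipid droplets, fell in EPR by 0.61 (standard error 0.08, adjusted p = 3.6e-05), from 62.3 to 66.5 CPM in mock to 39.9 to 44.1, and had -0.36 in EPRSTOPE (adjusted p = 0.0021), at 46.3 to 53.9 CPM. Elovl6, which extends palmitate to stearate, had -0.42 (adjusted p = 0.0022) and -0.34 (adjusted p = 0.0089), below the fold cut-off though its libraries did not overlap mock in either comparison.

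When EPR cells were set directly against EPRSTOPE cells, the Fads genes and Cyp51 were higher and Srebf1 and Fdps lower in EPR. These are 3 genes higher and 2 lower of 29, or 10.3% and 6.9%, where 6.86% of all genes tested were higher and 6.35% lower, and the median log2 fold change was -0.06 beside 0.01 over all genes. The libraries did not overlap for 5 genes higher and 8 lower in EPR, against 20.8% and 22.2% of all genes tested. At an adjusted p under 0.05 and any fold, 4 were higher and 6 lower (14% and 16.2% of all genes), and beyond a log2 fold change of 1, 1 was higher and 0 lower (3.75% and 2.76%). Fads2 differed most, 2.997-fold higher in EPR (log2 fold change 1.58, standard error 0.09, adjusted p = 1.3e-07). Cyp51 was 1.76-fold higher (log2 fold change 0.81, standard error 0.08, adjusted p = 8.3e-06), and Fads1 1.64-fold higher (log2 fold change 0.72, standard error 0.06, adjusted p = 5.6e-06). Srebf1 was lower in EPR at -0.60 on the log2 scale (standard error 0.06, adjusted p = 1.8e-05), and Fdps stood at -0.52 (standard error 0.07, adjusted p = 0.00023). With counts scaled for transcript length the calls of Srebf1 (adjusted p = 0.10) and Cyp51 (adjusted p = 0.15) were lost, and that of Fdps was lost without EPR library 208 or EPRSTOPE library 210 and with at least 10 counts required in every library, at -0.46 to -0.49. Because the RNA level of EPR also differed between these cells, the effect of the stop codon and that of the dose cannot be told apart. The cells are also separately transfected pools. The other genes of chromosome 19, where both Fads genes lie, differed between them by a median of 0.54 on the log2 scale. Such differences between the pools cannot be told apart from effects of stop codon or dose either.

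**Figure D3:**
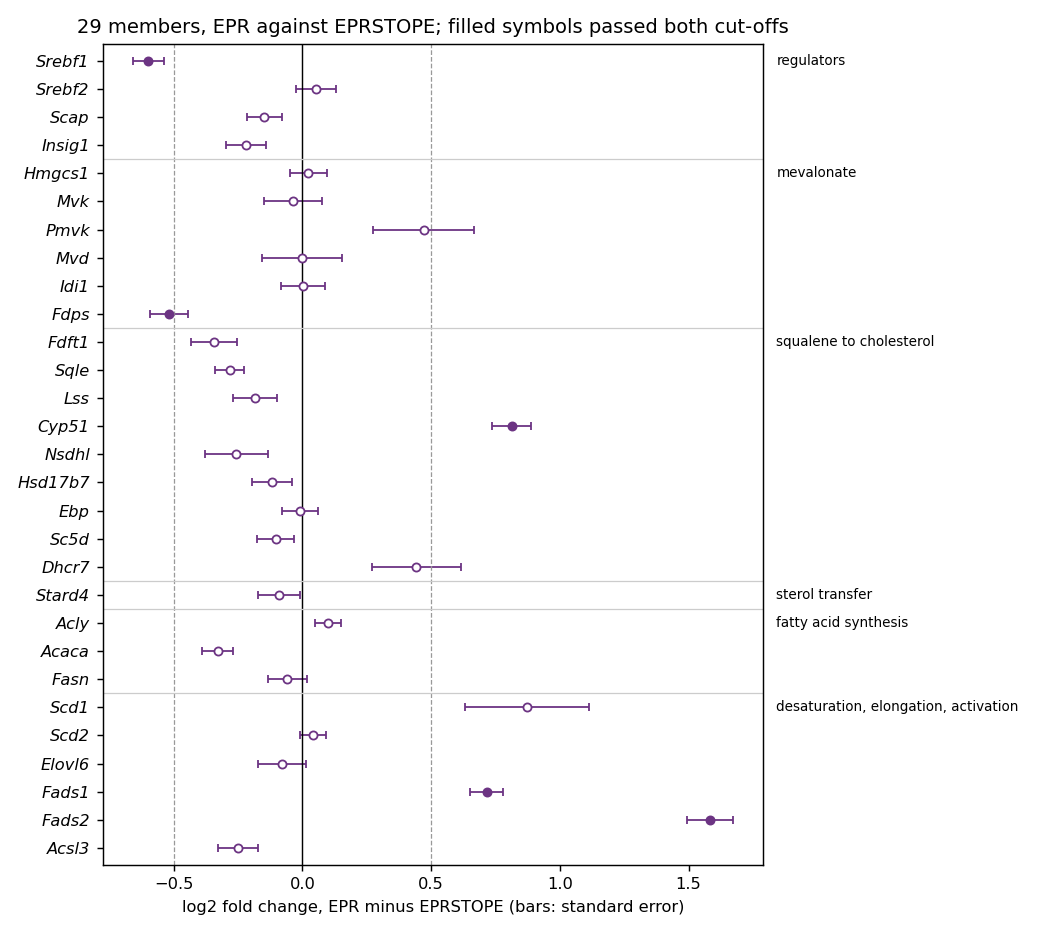
Log2 fold change of EPR minus EPRSTOPE (x axis) for the 29 genes in rows grouped by role, from 3 libraries per condition, with standard errors as bars. Filled symbols passed both cut-offs: Cyp51, Fads1 and Fads2 on the right, Srebf1 and Fdps on the left, and the other 24 are open.

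Several genes called against mock in EPR, in EPRSTOPE or in both did not pass both cut-offs between EPR and EPRSTOPE. Hmgcs1 (0.02, adjusted p = 0.86) and Sc5d (-0.10, adjusted p = 0.31) overlapped between these conditions. Acsl3 had -0.25 (adjusted p = 0.030) without overlap. Scd1 was 9.69 ± 2.95 CPM (SD, n = 3) in EPR and 5.21 ± 1.33 in EPRSTOPE, a difference of 0.87 on the log2 scale (standard error 0.24, adjusted p = 0.016) that passed under 5 of the 16 alternative fits. Fdft1 (-0.35, adjusted p = 0.012), Sqle (-0.28, adjusted p = 0.0022) and Acaca (-0.33, adjusted p = 0.0015) were lower in each EPR library than in each EPRSTOPE library and stayed under the cut-offs.

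Some of these genes lie on chromosomes whose other genes also differed between the cells. The 464 other tested genes of chromosome 14, where Fdft1 lies, differed by a median of 0.50 on the log2 scale in EPR and 0.64 in EPRSTOPE against mock, and the 519 others of chromosome 15, with Srebf2 and Sqle, 0.49 and 0.52. These were the 2 highest medians of 20 chromosomes in both comparisons. Around Srebf2, the 40 nearest tested genes had medians of 0.48 and 0.66, close to its own 0.63 and 0.58. Around Sqle they had 0.58 and 0.60, against its 0.87 and 1.15, and around Fdft1 0.64 and 0.82, against its 1.18 and 1.52. Chromosome 19, with Scd1, Scd2, Fads1 and Fads2, had a median of -0.02 in EPR and -0.55 in EPRSTOPE against mock, the lowest of the 20 chromosomes in EPRSTOPE, and of 0.54, the highest, in the direct comparison. There the 40 genes nearest to both Fads genes had 0.55 in the direct comparison, against 0.72 and 1.58 for Fads1 and Fads2, and -0.50 in EPRSTOPE against mock. Scd2 had 0.40 in that comparison, where its 40 neighbours had -0.48. Among the 22 genes on all other chromosomes, 5 rose and 3 fell in EPR (22.7% and 13.6%, against 13.7% and 13.4% of all tested genes on those chromosomes), and 5 rose and 2 fell in EPRSTOPE (22.7% and 9.09%, against 14.2% and 11.9%). In the direct comparison 1 was higher and 2 lower (4.55% and 9.09%, against 5.8% and 6.47%). The part of these chromosome-wide differences in the values of single genes was not tested.

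**Figure D4:**
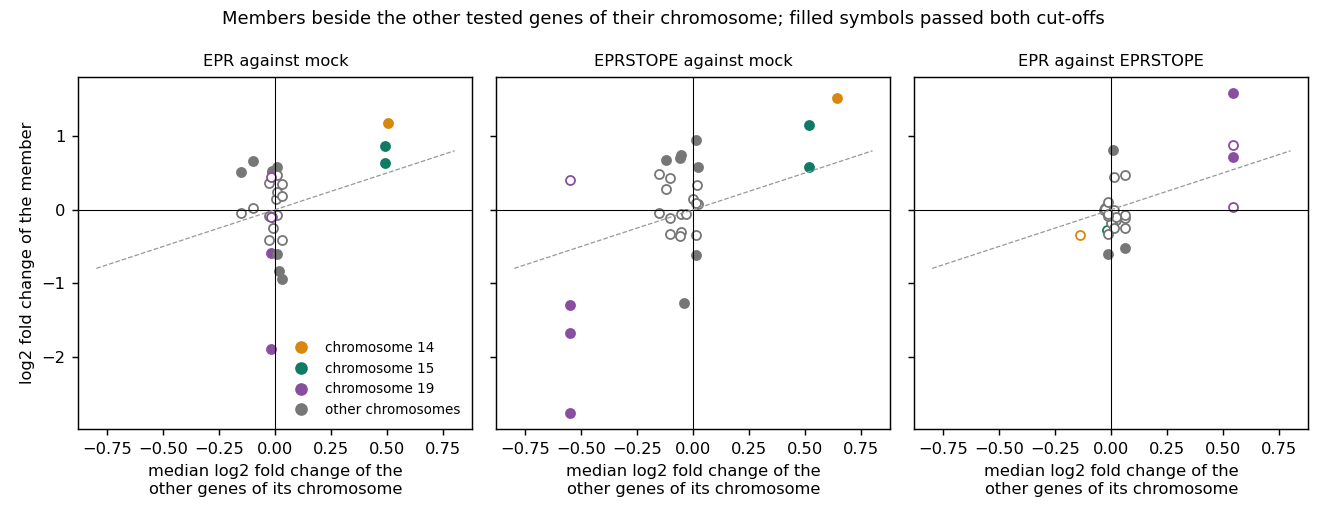
Log2 fold change of each of the 29 genes (y axis) against the median log2 fold change of the other tested genes of its chromosome (x axis), in 1 panel per comparison; the dashed line marks equal values and filled symbols passed both cut-offs. Genes of chromosomes 14 and 15 sit at medians near 0.5 in both comparisons with mock, and those of chromosome 19 at -0.55 in EPRSTOPE against mock, whereas the 22 others sit near 0 on the x axis.

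Of 12 other listed genes of sterol synthesis, 3 rose and 2 fell in EPR (25% and 16.7%, against 15.2% and 12.9% of all genes tested) and 3 rose and 0 fell in EPRSTOPE (25% and 0%, against 15.6% and 12.4%). The medians were -0.01 and 0.01. Msmo1, a sterol oxidase, rose from 70.9 ± 6.6 CPM (SD, n = 3) to 108 ± 4 in EPR and 115 ± 3 in EPRSTOPE. Mbtps2, the protease that makes the second cut in SREBPs, rose by 0.73 and 0.69, and Insig2, the relative of Insig1, by 0.56 and 0.83. Tmem97 fell in EPR by 0.79 and Pdss1, of ubiquinone synthesis, by 0.66. Between EPR and EPRSTOPE, Tmem97 was lower in EPR (-0.57, adjusted p = 0.00043) and the other 11 did not pass.

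Of 26 further fatty acid genes, 20 were expressed highly enough to be tested, 7 rose and 2 fell in EPR, and 5 rose and 1 fell in EPRSTOPE (medians 0.35 and 0.33). The increases were 35% and 25% of the tested genes, against 15.2% and 15.6% of all genes, and the decreases 10% and 5%, against 12.9% and 12.4%. Scd3, another stearoyl-CoA desaturase, rose from 0.87 ± 0.26 CPM to 7.24 ± 0.91 in EPR and 7.39 ± 0.73 in EPRSTOPE (n = 3 each), log2 fold changes of 2.98 and 3.004. Elovl4, an elongase of very long fatty acids, fell from 10.4 ± 1.6 CPM to 0.37 ± 0.33 in EPR and to 0 counts in every EPRSTOPE library, at least 27.7-fold lower in EPRSTOPE when 3 counts per library are taken as the limit. Acsl4, a synthetase for arachidonate, rose in EPR from 80.8 ± 2.2 to 236 ± 25 CPM and was 1.12 higher on the log2 scale in EPR than in EPRSTOPE. Acsl1 rose by 1.07 and 1.30. Between EPR and EPRSTOPE, Acsl5 was also higher in EPR (0.67), and Slc25a1, the mitochondrial citrate carrier, lower (-0.60).

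The list for sterol sensing, uptake, export and storage held the oxysterol receptor gene Nr1h3 and its export targets, which were near 0 in mock. The other oxysterol receptor gene of the list, Nr1h2, was not near 0 there. Nr1h2 stood at 30.8 ± 3.1 CPM (SD, n = 3) in mock, 40.1 ± 1.7 in EPR and 41.8 ± 3.5 in EPRSTOPE. Its log2 fold changes of 0.37 and 0.44 against mock stayed under the fold cut-off. Of the 14 genes of the list, 5 rose and 2 fell in EPR, 7 rose and 2 fell in EPRSTOPE (medians 0.43 and 0.57). The increases were 35.7% and 50% of the list, against 15.2% and 15.6% of all genes tested, and the decreases 14.3% in both, against 12.9% and 12.4%. Nr1h3, the oxysterol receptor LXR-alpha, passed as higher in both, with 0.11 ± 0.18 CPM (SD, n = 3) in mock cells, 14.9 ± 1.5 in EPR cells and 12.8 ± 0.7 in EPRSTOPE cells. Its known targets, the cholesterol exporters Abca1 and Abcg1, were also higher in both. Abca1 stood at 0.23 ± 0.08, 2.54 ± 1.17 and 4.49 ± 0.43 CPM, and Abcg1 had 0 counts in every mock library and stood at 3.42 ± 0.21 CPM in EPR and 7.04 ± 1.85 in EPRSTOPE, at least 9.5-fold and 19.6-fold higher by the same limit. Setting Abcg1 at these limits left both medians of the list as they were. Of the 29 genes, Srebf1, Scd1 and Fasn are also known LXR targets. Their log2 fold changes against mock were positive for Srebf1 and negative for Scd1 and Fasn. Srebf1 in EPR and Fasn in both conditions stayed under the fold cut-off. With counts scaled for transcript length, Srebf1 turned to -0.36 in EPR. The part of LXR in these values was not tested. Between EPR and EPRSTOPE, the lysosomal lipase Lipa (1.05) and Osbp (0.69) were higher in EPR and the lysosomal sterol carrier Npc2 lower (-1.23). On the burning side, 16 genes of mitochondrial fatty acid oxidation gave 2 higher and 1 lower in EPR and 3 higher and 1 lower in EPRSTOPE (medians 0.16 and 0.21). These are 12.5% and 6.25% in EPR and 18.8% and 6.25% in EPRSTOPE, near or below the shares of all genes (15.2% and 12.9%, 15.6% and 12.4%). Cpt1a, the gatekeeper of fatty acid entry into mitochondria, rose from 70.4 ± 3.4 CPM to 243 ± 9 in EPR and 142 ± 6 in EPRSTOPE and was 0.77 higher in EPR than in EPRSTOPE. Acadl fell by 0.89 and 0.70, Acads rose in EPR by 0.58, and Acaa2 rose in EPRSTOPE by 0.73 and was 1.06 lower on the log2 scale in EPR than in EPRSTOPE.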

How the data were processed

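RNA of NMuMG cells was sequenced as stranded total-RNA libraries with paired 75-base reads. The authors quantified them with Kallisto 0.43.1 on Gencode vM15 (GRCm38.p5) and deposited 2 values per transcript and library, an estimated count that is not normalized and a TPM, scaled by the authors for effective length to a total of 1000000. Conditions came from the genotype labels.

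Estimated counts were summed per gene symbol and rounded. Genes reaching 1 CPM in 3 or more libraries were fitted with edgeR 4.0.16 (quasi-likelihood test, TMM, a factor of 3 levels) in R 4.3.3 over all 9 libraries. DESeq2 1.42.0 and limma 3.58.1 served as alternatives, beside other filters, thresholds, length-scaled counts and leaving out each library. The scripts were tested on simulated data, where edgeR called 126 of 200 genes given a log2 fold change of 1.5 (63%), with 1 false call. A gene that did not pass can therefore still differ. Intervals, SD and n refer to libraries, and 3 counts equal 0.253 to 0.502 CPM. Gene positions came from Gencode M21 (GRCm38), promoters from RefSeq. Python 3.11.15 was used elsewhere.

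The 29 genes, the lists and the rule for named genes (the 4 regulators, the 5 largest calls per comparison and up to 3 genes of each list) were chosen with earlier results of these data known. Hmgcs1, Scd2 and other genes outside the rule are named to account for all 29. Nr1h2 is named as the other oxysterol receptor of its list.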

Additional observations from a re-analysis of the deposited data

How the results depend on the processing

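Of the members called, 6 of 13 in EPR against mock, 10 of 13 in EPRSTOPE against mock and 2 of 5 in EPR against EPRSTOPE kept their call in all 16 alternative fits. DESeq2, limma, RLE size factors and no filter on low counts left the counts of members called against mock at 8 higher and 5 lower. Requiring 10 counts in every library left 1 member lower in the direct comparison, with a median of -0.0277. Counts scaled for transcript length changed most: 3 members lower and a median of 0.0136 for EPR against mock, a median of -0.018 for EPRSTOPE against mock, and 1 lower with a median of 0.019 in the direct comparison, and they turned the sign of Srebf1 (-0.36), Acly (-0.17) and Fads2 (0.0136) in EPR, of Acly (-0.24) and Scap (-0.018) in EPRSTOPE, and of Ebp, Elovl6, Mvk and Stard4, which were not called there, in the direct comparison. In EPR against mock, the calls of Cyp51, Hsd17b7, Ebp, Dhcr7 and Fads1 were lost with these counts, while Scd2 passed as higher. In EPRSTOPE against mock, Srebf1, Ebp and Dhcr7 lost their call, and Hmgcs1 and Scd2 passed as higher. Calls over all genes fell too, from 2336 higher and 1980 lower to 1772 and 1273 in EPR. They fell from 2399 and 1903 to 1879 and 1202 in EPRSTOPE, and from 1055 and 976 to 479 and 456 in the direct comparison. The cause was not tested. Without 1 library, the medians ran from 0.0675 to 0.183, from 0.0674 to 0.136 and from -0.0816 to -0.0206, the members lower in the direct comparison numbered 1 or 2, and the direct value of Srebf2 ran from -0.0034 without EPRSTOPE library 209 to 0.103. Among members not called in the comparison, the sign also turned without 1 library for Nsdhl in EPR, for Lss, Pmvk and Idi1 in EPRSTOPE, and for Mvk, Mvd, Idi1, Hmgcs1, Ebp and Fasn in the direct comparison. At an adjusted p under 0.05 with any fold, 13 members were higher and 8 lower in EPR, 9 lower in EPRSTOPE and 6 lower in the direct comparison. Beyond a log2 fold change of 1, 1 was higher and 1 lower in EPR, 2 were higher in EPRSTOPE, and 1 was higher and 0 lower in the direct comparison, because fewer members pass. Counting members off chromosomes 14, 15 and 19, a choice made after seeing the data, left 5 higher and 3 lower in EPR, 5 higher and 2 lower in EPRSTOPE and 1 higher in the direct comparison, from 22 members. No paired analysis was possible because the library numbers are not shared between conditions. Depth limits Abcg1, Nr1h3, Abca1 and Elovl4, which lie near 3 counts in some libraries.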
